A study of Mus musculus with 24 samples.

Results

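The comparison described here set 7 RiboMinus libraries sequenced at Vienna-IMP against 7 sequenced at Nijmegen, which are 14 of the 24 samples of the series. They were chosen as the RiboMinus libraries with a list of mapped sequence tags, and each location holds 2 sheared and 2 hydrolysed libraries of CCE, and 1 sheared and 2 hydrolysed libraries of FH. CCE is a mouse embryonic stem cell line of strain 129/SvEv that had been differentiated for 5 days without LIF and with 0.266 µM retinoic acid. FH is fetal head of FVB/N mice at 14.5 dpc. Total RNA was depleted of ribosomal RNA with RiboMinus, in 1 round for CCE and for FH preparation 1 and in 2 rounds for FH preparation 2, and was fragmented either as RNA by hydrolysis or as double-stranded cDNA by shearing. Both locations received the same cDNA and made their own sequencing libraries from it, with a fragment size of 1 value named for Nijmegen and a wider range of sizes for Vienna-IMP. Library preparation, size selection, amplification and sequencing all changed with the location and cannot be told apart here. CCE preparations are technical replicates of 1 line and no separate animals are named for FH, so that p-values measure the spread between these libraries, which may be technical.

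A sequence tag is the mapped start of a cDNA fragment, and a gene is counted by the tags whose midpoint lies in its exons. Before sequencing, adapters are joined to the fragments, fragments of a chosen size are kept and these are amplified by PCR. Base composition is a well-known influence on amplification and on cluster formation, since strands rich in G and C separate less readily, and the 5′ ends of mammalian genes are often such stretches because many promoters lie in CpG islands. RNAs of a short and fixed length, such as small nucleolar RNAs (snoRNAs), can only give fragments up to that length. Neither amplification nor fragment size was varied on its own in these libraries, and their part in the results was not tested. The question was which genes, which classes of GC content and which classes of length shifted with the location in both tissues.

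Libraries held between 920424 and 2473448 unique tags. All 11 markers of differentiated CCE cells found were higher in CCE at both locations, and the 7 fetal brain markers and 10 markers of other head tissue found were higher in FH at both locations. The hydrolysed FH preparation 1 library of Nijmegen had the lowest protein-coding exon share of its location at 43.7%, against 54.5% to 71.1% in the other Nijmegen libraries. Leaving it out changed the number of genes that passed in both tissues, as given below, but no count of passing GC classes. The study calls another FH library most likely a technical outlier, since its tag types differ from those of the other RiboMinus libraries. By the order of the lanes that library is hydrolysed FH preparation 1 of Vienna-IMP. Both locations sequenced the same numbered cDNA preparations, yet the log2 ratio of preparation 1 to 2 correlated between them with r = 0.64 in sheared CCE and with r = -0.69 and -0.59 in hydrolysed CCE and FH, across genes. Hydrolysed preparations thus deviated together across their numbers, as if these had been exchanged at 1 location, which the labels do not settle. Fits did not use the numbers unless stated.

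Few genes shifted with location in both tissues. Of 12568 genes tested, 3 passed in CCE and in FH with the same sign, which is 0.0239% of the genes. In CCE alone 42 genes passed (0.334%), of which 16 were higher at Vienna-IMP, and in FH 4 genes passed (0.0318%), of which 1 was higher at Vienna-IMP (0.00796%). No gene passed a test of whether its location difference differed between the tissues (0%), with 142 genes at an unadjusted p under 0.05. That is fewer than chance alone would give among 12568 genes, so the test does not show that the tissues were alike. The test was limma with voom weights and Benjamini-Hochberg adjustment over all 12568 genes, and differences are log2 values of Vienna-IMP minus Nijmegen. With median-ratio scaling 2 genes passed in both tissues and 4 in FH, none of them higher at Vienna-IMP. Pairing the preparations raised these counts. With the number as a replicate block, 12 genes passed in both tissues, 51 in CCE and 13 in FH, and with the numbers of hydrolysed preparations crossed, an alternative planned with earlier results known, it was 27, 132 and 33. Set, Rnf217 and Gm17591, described next, passed in both tissues under either block. The median difference over all genes tested was 0.01 for CCE and 0.05 for FH. With the mean of both tissues as the contrast, which was added after the data were seen, 120 genes passed (0.955%), 41 of them higher at Vienna-IMP (0.326%) and 79 at Nijmegen (0.629%). Under the blocks the mean gave 128 genes as numbered and 310 crossed. Without the Nijmegen library of lowest protein-coding share, 1 gene passed in both tissues and 125 in the mean. Without the sheared FH library of Vienna-IMP, none passed in both tissues and 50 in the mean, and without the sheared CCE preparation 1 library of Vienna-IMP, 10 passed in both tissues.

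The 3 genes that passed in both tissues were Set, Rnf217 and Gm17591. Set (ENSMUSG00000054766.7, mm9 chr2:29912898-29928097, plus strand) encodes a histone chaperone that also inhibits protein phosphatase 2A. Its RPKM at Vienna-IMP was 6.24, 5.86, 9.95 and 6.26 in sheared and hydrolysed CCE preparation 1 and then sheared and hydrolysed CCE preparation 2, and 7.87, 1.63 and 3.03 in sheared and hydrolysed FH preparation 1 and hydrolysed FH preparation 2. At Nijmegen it was 41.1, 23.6, 28.7, 18.6, 21.6, 10.5 and 9.56 in the same order. Every library of Nijmegen lay above its counterpart, and within a tissue the locations did not overlap. CCE gave a difference of -1.97 ± 0.22 (SE, adjusted p = 0.000211) and FH one of -1.89 ± 0.30 (adjusted p = 0.0285).

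Rnf217 (ENSMUSG00000063760.6, chr10:31221700-31329531, minus strand), a gene of the RING finger ubiquitin ligases, was also higher at Nijmegen. In the order used for Set its RPKM was 5.45, 5.10, 8.03, 5.55, 10.1, 7.45 and 6.24 at Vienna-IMP and 25.2, 16.4, 23.1, 13, 24.8, 17.3 and 23.5 at Nijmegen. The lowest Nijmegen value lay above the highest Vienna-IMP value, so the locations did not overlap. CCE gave a difference of -1.67 ± 0.22 (adjusted p = 0.000993) and FH one of -1.48 ± 0.24 (adjusted p = 0.0285). In RPM, the tags of a gene scaled to a library of 1000000 unique tags, 20 of the 12568 genes tested (0.159%) had all 7 libraries of a location above all 7 of the other.

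Gm17591 (ENSMUSG00000091645.1, chr12:81209021-81213987, plus strand) was the gene higher at Vienna-IMP. Mean RPKM in CCE was 36.2 ± 10.4 (SD, n = 4) at Vienna-IMP and 11.4 ± 1.27 at Nijmegen, with a difference of 1.62 ± 0.24 (adjusted p = 0.00314). In FH it was 25.5 ± 5.12 (n = 3) at Vienna-IMP and 7.54 ± 2.74 at Nijmegen, with a difference of 1.70 ± 0.30 (adjusted p = 0.0474). This gene shares 92.5% of its exon bases with other genes, and its tags cannot be told apart from those of Zfp36l1 on the other strand, an RNA-binding protein gene that promotes mRNA decay, since the tags carry no strand. In Zfp36l1, the first 2 stretches of 100 exon bases were higher at Vienna-IMP in both tissues and its 6 other tested stretches did not pass. At chr12:81213780-81213879, inside an exon of Gm17591, Vienna-IMP libraries held 25 to 123 tags and Nijmegen libraries 4 to 15. Without its fullest stretch, Gm17591 gave a difference of 0.97 in CCE and of 0.97 in FH, with adjusted p = 0.208 and 0.995. It did not pass in both tissues with median-ratio scaling, with repeated positions counted once, in hydrolysed libraries only, with no filter or with a filter of 50 tags, and passed in 5 of 14 fits with a library left out, against 8 for Set and 9 for Rnf217.

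The share of tags taken by genes of a given GC content or length did not separate the locations. Genes were put into 6 classes by the GC of their merged exons and into 6 classes by their exon length, and the share of all exon tags in each class was compared by an exact permutation of the location within tissue and fragmentation (two-sided, with a smallest possible p of 0.00463). None of the 6 GC classes passed after adjustment, where adjusted p ran from 0.417 to 0.884, and none of the 6 length classes, where it was 0.824 for each. Genes of 55 to 60% GC took 26.6% ± 2.63 (SD, n = 7) of exon tags at Vienna-IMP and 25.2% ± 5.01 at Nijmegen (p = 0.208, exact permutation test). Genes of at least 60% GC took 9.56% ± 3.63 and 9.64% ± 3.34 (p = 0.731, exact permutation test). The mean GC of exon tags was 57.2% ± 1.98 and 57.1% ± 2.73, a difference of 0.06 percentage points (p = 0.894, exact permutation test). Single genes that passed in the mean of both tissues are given by class beside the share of all genes, which was 0.629% higher at Nijmegen and 0.326% at Vienna-IMP, and differences between classes were not tested. Of 704 genes tested with at least 60% GC, 25 were higher at Nijmegen and 2 at Vienna-IMP, and of 486 genes under 40%, 1 and 5 were. Of 67 genes tested under 0.3 kb, 1 was higher at Nijmegen and 18 at Vienna-IMP, and none of 1519 genes over 8 kb passed.

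The mean GC of exon tags moved in opposite directions in hydrolysed and sheared libraries. The GC of exon tags was higher at Vienna-IMP by 0.12 percentage points in hydrolysed CCE and by 1.29 in hydrolysed FH, whereas sheared CCE gave -0.70 and sheared FH -1.03. The difference between hydrolysed and sheared libraries was 1.52 percentage points, with p = 0.0278 in an exact permutation test. This contrast was not planned and was run for every measure, with adjustment only within each family of measures. In the 55 to 60% class the location difference was 2.25 and 4.39 percentage points in hydrolysed CCE and FH, and -0.29 and -3.11 in the sheared libraries, and this dependence did not pass (adjusted p = 0.0648, exact permutation test). Sheared FH is 1 library at each location. At gene level, no gene passed a test of this dependence (0% of 12568, 877 at an unadjusted p under 0.05), with 263 passing when hydrolysed preparations were paired across their numbers, an alternative added after the data were seen.

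The share of tags in 5′ UTRs was lower at Vienna-IMP. Among the tags of protein-coding exons that fell in an annotated 5′ UTR, coding exon or 3′ UTR, the 5′ UTR share was 6.38%, 6.02%, 7.02% and 5.64% for CCE at Vienna-IMP, and 8.63%, 6.75% and 6.93% for FH, in the order used for Set. Libraries of Nijmegen gave 9.09%, 7.70%, 7.46% and 6.79% for CCE, then 9.81%, 7.27% and 8.47% for FH. Each Nijmegen library lay above its counterpart while the ranges of the locations overlapped, and the difference of the means was -1.32 percentage points (p = 0.00463, the smallest the test can give, adjusted p = 0.0139, exact permutation test). When location was permuted without regard to tissue and fragmentation, the 5′ UTR share did not pass (adjusted p = 0.105, exact permutation test). By tissue and fragmentation, the difference ran from -1.57 in sheared CCE to -1.03 in hydrolysed FH. Coding exons and 3′ UTRs did not pass, at adjusted p = 0.472 for both. Protein-coding exons, exons of other genes, introns and the space outside genes took shares that did not pass either, at an adjusted p of 0.981 for each.

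**Figure D1:**
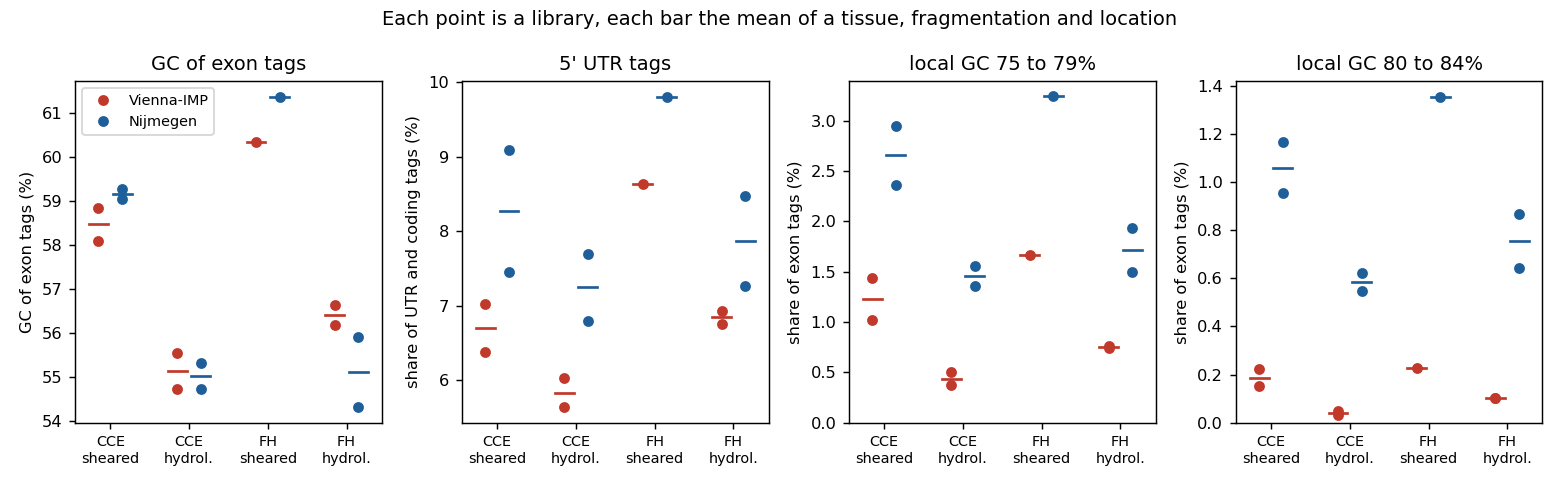
Each point is 1 library, placed by tissue and fragmentation, with Vienna-IMP in red, Nijmegen in blue and a bar at the mean; the vertical axes give the GC of exon tags (%), the 5′ UTR share of UTR and coding tags (%) and the shares of exon tags with 75 to 79% and 80 to 84% GC around them (%). The GC of exon tags changes its order between sheared and hydrolysed libraries, while in the other 3 panels the mean of Vienna-IMP lies under that of Nijmegen in all 4 combinations.

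The measure that separated the locations was the GC content directly around a tag. For each exon tag the GC of the 100 genome bases around its midpoint was taken, a measure added after the data were seen, and tags were put into 9 classes. Tags with a local GC of 80 to 84% made up 0.0319% to 0.227% of exon tags at Vienna-IMP and 0.547% to 1.35% at Nijmegen, with means of 0.126% and 0.879%, 6.95-fold more at Nijmegen. The lowest Nijmegen library lay above the highest Vienna-IMP library. Tags of 85% or more made up 0.000939% to 0.0100% at Vienna-IMP and 0.112% to 0.289% at Nijmegen, 33.0-fold more, again with no overlap. Tags of 75 to 79% made up 0.371% to 1.67% and 1.36% to 3.25%, 2.29-fold more at Nijmegen with overlapping ranges. In these 3 classes p was 0.00463, the smallest the exact permutation test can give, with adjusted p = 0.0104 over the 9 classes.

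Below 75% the classes moved both ways and 1 of 6 passed. Tags of 70 to 74% local GC made up 4.66% ± 2.10 of exon tags at Vienna-IMP and 5.41% ± 1.45 at Nijmegen (SD, n = 7, adjusted p = 0.0764, exact permutation test). Tags of 65 to 69% local GC were more frequent at Vienna-IMP, at 9.23% ± 2.74 against 8.03% ± 2.76 (SD, n = 7, p = 0.00463, adjusted p = 0.0104, exact permutation test), but did not pass without the strata of tissue and fragmentation (adjusted p = 0.579). Tags of 60 to 64% were 18.7% ± 2.98 and 16.6% ± 4.81, with adjusted p = 0.0583. Tags of 50 to 59% were 43.6% ± 2.82 and 41.9% ± 1.76, with adjusted p = 0.0893. The classes of 40 to 49%, at 18.4% ± 4.56 and 20.0% ± 7.35, and under 40%, at 4.29% ± 1.41 and 4.89% ± 2.70, had lower means at Vienna-IMP and did not pass, with adjusted p = 0.271 and 0.366. For the class under 40% the location effect differed between hydrolysed and sheared libraries, by -2.33 percentage points (p = 0.00463, adjusted p = 0.0417, exact permutation test). For the 3 classes of at least 75% it did not pass, at an adjusted p of 0.667 for each in the same test. That test also permutes the location effect itself, so where this effect is large it cannot decide on a dependence on fragmentation. At 80 to 84% the location difference was -0.54 and -0.65 percentage points in hydrolysed CCE and FH, and -0.87 and -1.13 in sheared CCE and FH. In these 3 classes all 4 combinations of tissue and fragmentation were lower at Vienna-IMP.

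**Figure D2:**
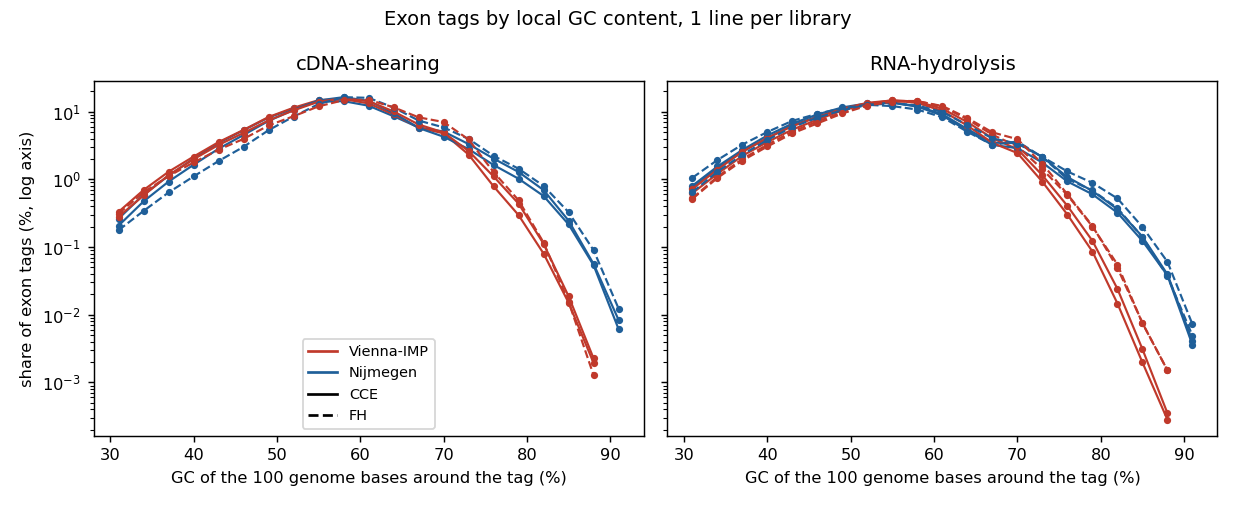
Share of exon tags (%, log axis) against the GC of the 100 genome bases around the tag (%), with 1 line per library, Vienna-IMP in red, Nijmegen in blue, CCE as full and FH as dashed lines, and sheared and hydrolysed libraries in separate panels. From 75% on every Vienna-IMP line lies under every Nijmegen line of its panel, while below 70% the lines cross and their order differs between the panels.

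Local GC also moved with the 5′ UTR share. Among tags with a local GC under 70%, 5′ UTRs took 5.19% ± 0.52 at Vienna-IMP and 5.12% ± 0.48 at Nijmegen, a difference of 0.07 percentage points (p = 0.685, exact permutation test). Among tags of at least 70%, they took 40.7% ± 2.56 and 46.4% ± 4.43 (p = 0.00463, adjusted p = 0.00926, exact permutation test). Tags of at least 75% local GC were less frequent at Vienna-IMP in every region looked at. They made up 8.12% ± 3.21 of 5′ UTR tags at Vienna-IMP and 21.8% ± 3.53 at Nijmegen, 0.757% ± 0.41 and 2.19% ± 0.79 of coding tags, 0.0474% ± 0.04 and 0.104% ± 0.08 of 3′ UTR tags, and 0.408% ± 0.28 and 1.32% ± 0.77 of intron tags. All 4 had p = 0.00463 and an adjusted p of 0.00579 over 5 regions in the exact permutation test, and tags outside genes gave 3.77% ± 1.07 and 4.78% ± 1.58 with an adjusted p of 0.0139. Without the strata of tissue and fragmentation, 3′ UTRs and tags outside genes did not pass (adjusted p = 0.106 and 0.184, exact permutation test). Introns and coding exons thus moved in the same direction as 5′ UTRs.

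To place these tags within genes, merged exons were divided into bins of 100 bases, a step also added after the data were seen. Of 25715 bins with a mean of at least 10 tags per library in at least 1 tissue, 198 passed in both tissues with the same sign (0.770%), 151 higher at Nijmegen (0.587%) and 47 at Vienna-IMP (0.183%). No bin passed a test of whether its difference itself differed between the tissues (696 at an unadjusted p under 0.05). Of the 47 bins, 14 shared bases with a passing bin of another gene, as did 6 of the 151. Their shared tags were counted for each gene, so these are not all separate stretches. The 151 bins higher at Nijmegen had a median GC of 79%, against 57% over all bins tested, and 137 of them held at least 70% GC. They lay in 106 genes, 71 in 5′ UTRs, 76 in coding exons and none in 3′ UTRs, where the 25715 bins tested held 1710, 18065 and 4934. Of the 151 bins, 115 (76.2%) lay within the first 500 exon bases of the gene, as did 19.4% of all bins tested. In 70 of these 151 bins all Nijmegen libraries lay above all Vienna-IMP libraries, as did 1 location over the other in 0.611% of all bins. Without the Nijmegen library of lowest protein-coding share, 164 bins passed in both tissues, and 145 passed without hydrolysed FH preparation 1 of Vienna-IMP. Counting repeated positions once left 100 higher at Nijmegen and 7 at Vienna-IMP. With a filter of 50 tags 14 were higher at Nijmegen and 16 at Vienna-IMP. A bin can pass the filter on tags through the location where it is high, so these counts are a description. The shares of tags given above use no such filter, but they were also added after the data were seen.

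Among bins that passed the filter on tags, which can happen through Nijmegen alone, the share higher at Nijmegen rose with GC up to 84%. Of 96 bins of 80 to 84% GC, 53 were higher at Nijmegen (55.2%), and of 15 bins of at least 85%, 8 were (53.3%). Of 356 bins of 75 to 79% GC, 53 were higher at Nijmegen (14.9%), and of 1048 bins of 70 to 74%, 23 were (2.19%). Of 461 bins under 40% GC and 3858 of 40 to 49%, none was higher at Nijmegen. Median differences were -2.70 in CCE and -2.95 in FH for bins of 80 to 84%, and 0.16 and 0.35 for bins of 60 to 64%. Among bins of under 70% GC, 4 of 1155 5′ UTR bins and 9 of 17228 coding bins were higher at Nijmegen, and among those of at least 70% it was 67 of 555 and 67 of 837.

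**Figure D3:**
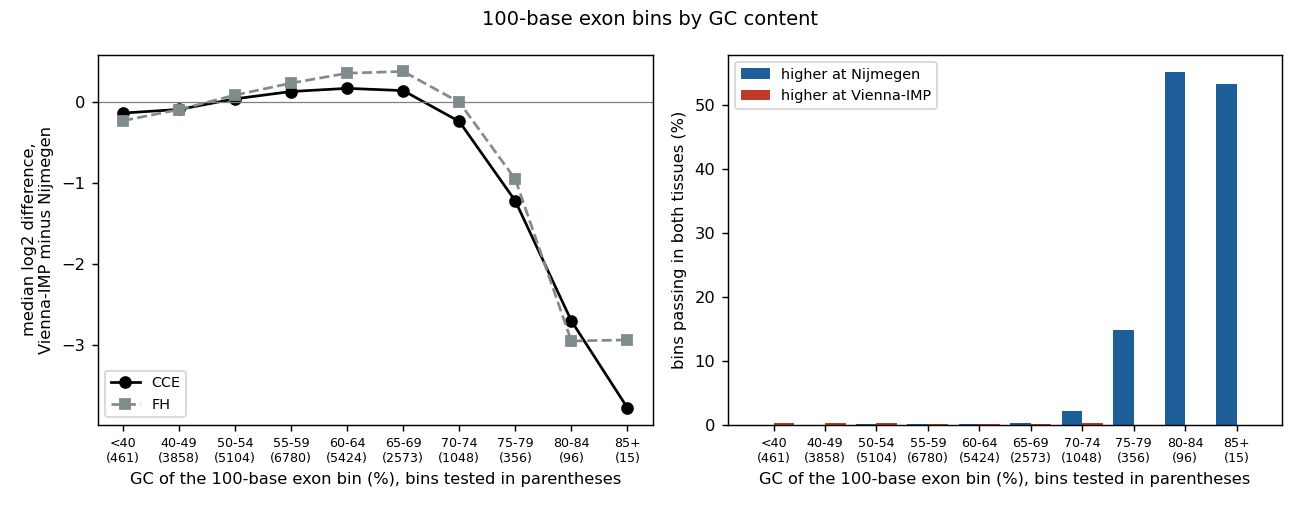
Bins of 100 exon bases by GC class, with the number of bins tested in parentheses; the left panel gives the median log2 difference of Vienna-IMP minus Nijmegen in CCE (black) and FH (grey), and the right panel the percent of bins that passed in both tissues, higher at Nijmegen (blue) or Vienna-IMP (red). Medians stay between -0.25 and 0.37 up to 74% GC and fall to -0.96 or lower from 75% on.

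A selection of 8 bins with strongly negative mean differences, each from a different gene, shows what these stretches look like. It is not a full ranking of the bins. For each, the 30 bases of highest GC are printed 5′ to 3′ on the strand of the gene, from the mm9 assembly, with CpG dinucleotides in capitals. The bins were picked for these values.
Mfsd11, chr11:116713884-116713913: gCGgctcCGcCGccCGtagcCGcCGcCGcc
Arf6, chr12:70473437-70473466: tggagcCGgCGCGtgcCGaggCGgCGgagg
Lemd2, chr17:27341103-27341132: gCGcCGctgCGCGCGCGgccCGcCGccagc
Trim28, chr7:13610030-13610059: cccctgggCGgcccccccaccccccCGgCG
Igf2, chr7:149845334-149845363: ggcCGgccccCGgcccccccttcCGgcCGc
Yap1, chr9:8004297-8004326: ctcCGgcCGggaccccCGCGgcccCGccCG
Zfand5, chr19:21346968-21346997: gcCGggCGcctggagCGgCGctagcccCGc
Mtch1, chr17:29484619-29484648: CGgggCGgCGCGcCGgcCGgagtCGaggcc
These stretches hold between 83.3% and 93.3% G and C and from 3 to 8 CpG dinucleotides. The Trim28 and Igf2 stretches reach this with runs of C, the others with scattered CpGs.

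Trim28, a corepressor that binds KRAB zinc finger proteins, shows such a stretch beside the rest of its gene. Its bin at chr7:13610001-13610100, which lies in the 5′ UTR and holds 82% GC, had 0, 0, 0, 0, 0, 0 and 1 tags at Vienna-IMP and 23, 26, 50, 47, 15, 10 and 11 at Nijmegen, in the order used for Set. The mean level was 0.0653 RPM at Vienna-IMP and 18.1 at Nijmegen. The next bin, coding and of 79% GC, held 5, 0, 7, 0, 6, 0 and 0 tags and 37, 23, 72, 30, 28, 13 and 24. The few Vienna-IMP tags of this bin came from sheared libraries. The 2 bins that follow, of 77% and 70% GC, gave -1.38 and -1.34 in CCE and -0.98 and -1.52 in FH and did not pass. Bins from exon base 901 on, of 46 to 61% GC, did not pass in either tissue, and their differences lay between -1.04 and 1.19.

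Igf2, the imprinted fetal growth factor gene, had 1 bin that passed in both tissues. At chr7:149845270-149845369, in the 5′ UTR and of 87% GC, Vienna-IMP libraries held 0, 0, 1, 0, 0, 0 and 0 tags and Nijmegen libraries 7, 23, 28, 23, 22, 20 and 19. The locations did not overlap. The bins on either side, of 70% and 78% GC, gave -0.29 and -0.77 in CCE and -0.11 and -0.91 in FH, and neither passed. Coding bins of Igf2, which held 38 to 1093 tags in libraries of Vienna-IMP, did not pass. In its 3′ UTR, 2 bins of 40% and 45% GC passed in CCE, higher at Vienna-IMP, and did not pass in FH. A difference between the tissues passed for no bin.

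Yap1, the transcriptional coactivator at the end of the Hippo pathway, was lower at Vienna-IMP in its bin at chr9:8004297-8004396, which is coding and holds 85% GC. It held 2, 0, 2, 0, 0, 0 and 1 tags at Vienna-IMP and 31, 49, 48, 52, 21, 7 and 37 at Nijmegen, again with no overlap. Set showed the pattern in 3 neighbouring 5′ UTR bins of 72%, 83% and 79% GC that passed in both tissues, from chr2:29921989 to 29922288. In the bin of 83% GC, Vienna-IMP libraries held 0 to 5 tags and Nijmegen libraries 14 to 50. Only 4 bins of Set had enough tags to be tested, all in the 5′ UTR, and without its fullest bin the difference was -1.61 in CCE and -1.45 in FH (adjusted p = 0.000332 and 0.0595).

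**Figure D4:**
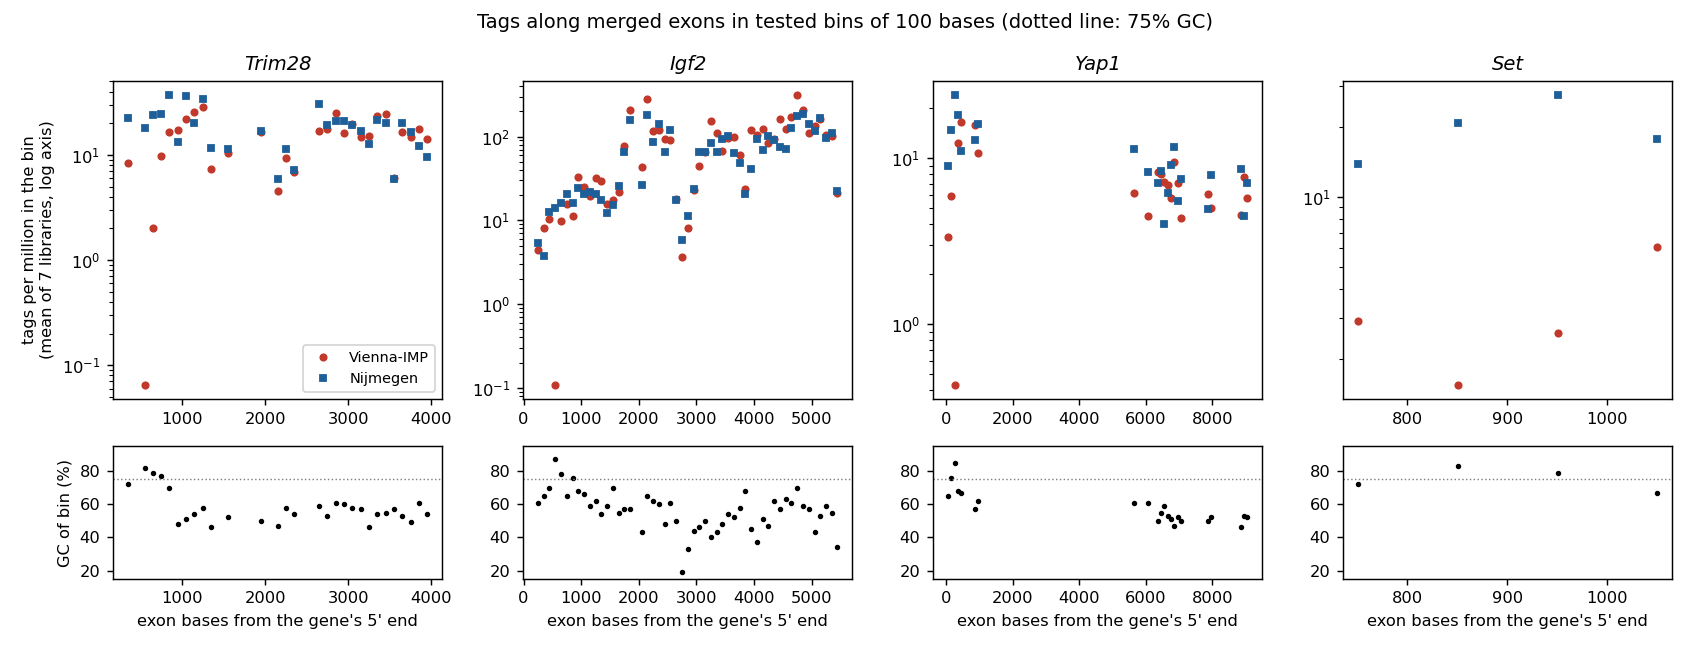
RPM in each tested bin of 100 exon bases (mean of 7 libraries, log axis) along Trim28, Igf2, Yap1 and Set, with Vienna-IMP as red circles and Nijmegen as blue squares, above the GC of each bin (%), with a dotted line at 75%; the horizontal axes give exon bases from the 5′ end of the gene. Vienna-IMP values drop in bins near or above 80% GC and lie near the Nijmegen values further along in Trim28, Igf2 and Yap1.

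Whole-gene values moved little. Of the 106 genes with a bin higher at Nijmegen, 91 had a negative mean difference, the median was -0.30, and 22 were called at gene level in the mean of both tissues, where 0.629% of all genes were higher at Nijmegen. The tags of these bins are part of the gene counts, so that the choice of the genes partly fixes these values. Of the 156 genes tested in which at least 20% of exon bins held 75% GC, 21 were higher at Nijmegen in the mean and none at Vienna-IMP, with median differences of -0.43 in CCE and -0.29 in FH. Of the 7629 genes with no such bin, 13 were higher at Nijmegen and 40 at Vienna-IMP, with medians of 0.04 and 0.08. Arf6 (a small GTPase of membrane traffic), Marcks (an actin-binding substrate of protein kinase C) and Jund (an AP-1 transcription factor) each had a bin of 79 to 83% GC with at most 5 tags in any Vienna-IMP library. In Marcks this bin held no tag in any Vienna-IMP library and 3 to 26 in those of Nijmegen.

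A group of snoRNAs was higher at Vienna-IMP. Of 1552 snoRNA genes in the annotation, 35 had enough tags to be tested, and a gene can pass this filter through the location where it is high. Of these 35, 11 were higher at Vienna-IMP in CCE (0.127% of all genes) and 14 in the mean of both tissues (0.326%), and none was higher at Nijmegen. Most of these calls rest on repeated positions. With repeated positions counted once, genes of any type higher at Vienna-IMP fell from 16 to 4 in CCE and from 41 to 13 in the mean. None passed in FH alone, and the difference between the tissues passed for none. The snoRNAs guide the chemical modification of ribosomal and spliceosomal RNAs, and most are cut from introns. Over the 35 genes, a choice that the filter tilts towards high values at either location, the median difference was 1.01 in CCE and 0.83 in FH, against 0.01 and 0.05 over all genes tested. Summed over all snoRNA genes, with no filter on tags, the level was 2597 ± 798 RPM (SD, n = 7) at Vienna-IMP and 1924 ± 524 at Nijmegen (p = 0.00463, adjusted p = 0.0324 over 7 gene groups, exact permutation test). With either replicate block an exact permutation within pairs gave this sum p = 0.0156, the smallest it can give, and an adjusted p of 0.109, and without strata of tissue and fragmentation the adjusted p was 0.310. Without the Nijmegen library of lowest protein-coding share none of the 7 gene groups passed, nor without any 1 of 4 others (sheared CCE preparations 1 and 2 of Vienna-IMP, and sheared CCE preparation 2 and hydrolysed FH preparation 2 of Nijmegen).

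Of the 14 snoRNAs that rose in the mean of both tissues, 12 had 126 to 168 bases. Among the 17 tested snoRNA genes of 126 to 168 bases, 11 were higher at Vienna-IMP in CCE (0.127% of all genes) and 12 in the mean (0.326%). Their median differences were 3.41 in CCE and 2.61 in FH. The limits of length were set with results known, and a gene can pass the filter on tags through Vienna-IMP alone. No level without the filter was computed for these 17 genes, so the choice partly fixes these values. Among the 13 of 184 to 414 bases none passed, with medians of 0.18 and 0.04. The 5 of 70 to 79 bases had medians of 0.83 and -0.42, and 2 of them passed in the mean. In the class under 0.3 kb as a whole, 12 of 67 were higher at Vienna-IMP in CCE (0.127% of all genes) and none at Nijmegen (0.207%). A short gene can pass the filter on tags through the location where it is high. With no filter, genes under 0.3 kb took 1.19% to 5.46% of exon tags at Vienna-IMP, with a mean of 2.63%, and 1.68% to 3.75% at Nijmegen, with a mean of 2.86% (adjusted p = 0.824, exact permutation test). Hydrolysed CCE had shares of 1.47% and 2.71% and hydrolysed FH of 1.90% and 2.70%, whereas sheared CCE had 3.11% and 2.71% and sheared FH 5.46% and 3.75%. Over the 67 genes of this class that passed the filter, the median difference was 0.58 in CCE and 0.51 in FH. Genes of miRNAs, short RNAs that repress mRNAs, summed to 8028 ± 4725 RPM at Vienna-IMP and 10153 ± 2445 at Nijmegen (adjusted p = 0.279, exact permutation test), with 4219 and 11085 in hydrolysed CCE, 5086 and 8322 in hydrolysed FH, 10821 and 9849 in sheared CCE and 15948 and 12558 in sheared FH. The means were thus lower at Vienna-IMP in hydrolysed and higher in sheared libraries, a dependence that did not pass (adjusted p = 0.194, exact permutation test).

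Snord15a (ENSMUSG00000065822.1, chr7:106631295-106631442, minus strand), a box C/D snoRNA in an intron of the ribosomal protein gene Rps3, held 16, 364, 59, 238, 12, 74 and 186 tags at Vienna-IMP and 8, 3, 3, 6, 2, 1 and 4 at Nijmegen, in the order used for Set. Every Vienna-IMP library held more tags than any at Nijmegen, and hydrolysed libraries of Vienna-IMP held more than sheared ones. The difference was 4.35 ± 0.73 in CCE and 4.47 ± 0.96 in FH (adjusted p = 0.00774 and 0.127). Its neighbour Snord15b in the same host gene held 29, 414, 131, 139, 32, 40 and 129 tags and 17, 6, 5, 4, 1, 1 and 3, with differences of 3.98 ± 0.73 and 4.63 ± 1.07 (adjusted p = 0.0133 and 0.215). The box H/ACA snoRNA Snora52, in an intron of Rplp2, held 8, 104, 49, 32, 23, 14 and 35 tags at Vienna-IMP, while no Nijmegen library held more than 1.
The ends of these RNAs are printed to show which molecules they are, 5′ to 3′ from mm9, with the C box TGATGA and the D box CTGA of box C/D snoRNAs and the ACA of box H/ACA snoRNAs in capitals.
Snord15a, first 30 bases: cttcgatgaagaggTGATGAcgagtctgag
Snord15a, last 30 bases: agatgaccaagaggcatttgtCTGAgaagg
Snord15b, first 30 bases: cttcagTGATGAcacgatgacgagtcagaa
Snord15b, last 30 bases: gattgatttagaggcatttgtCTGAgaagg
Snora52, last 30 bases: ggcttgtgcctgcagcgcttcagaACAccc
SNORA63, last 30 bases: tagcagccagggacgcttggtctcaaACAt
Of the 30 bases of each printed end, 12 to 19 are G or C.

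Some host genes were higher at Vienna-IMP in the bins that overlap a snoRNA. Tags in the shared bases were counted for both genes, so these bins are not results separate from those of the snoRNAs. The annotation gives Rplp2, a protein of the ribosomal stalk, exon bases that hold Snora52. Rplp2 differed by 2.18 ± 0.43 in CCE (adjusted p = 0.024) and did not pass in FH. The Rplp2 bin at chr7:148634690-148634789, which overlaps Snora52, held 5 to 63 tags in Vienna-IMP libraries and 0 to 1 at Nijmegen. In Eif4a2, a translation initiation helicase, the bin at chr16:23111382-23111481 overlaps SNORA63 and held 13 to 328 tags against 0 to 6, while its 2 other tested bins did not pass. In Rps3 the bin at chr7:106628089-106628188 overlaps Snord15b and held 26 to 378 tags against 0 to 17. Of the 47 bins higher at Vienna-IMP, 9 lay in a snoRNA gene, as did 60 of the 25715 bins tested. Of the same 47 bins, 6 overlapped a small RNA gene other than their own. This overlap was looked for only in bins that passed in both tissues or in the mean, so it has no count over all bins.

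**Figure D5:**
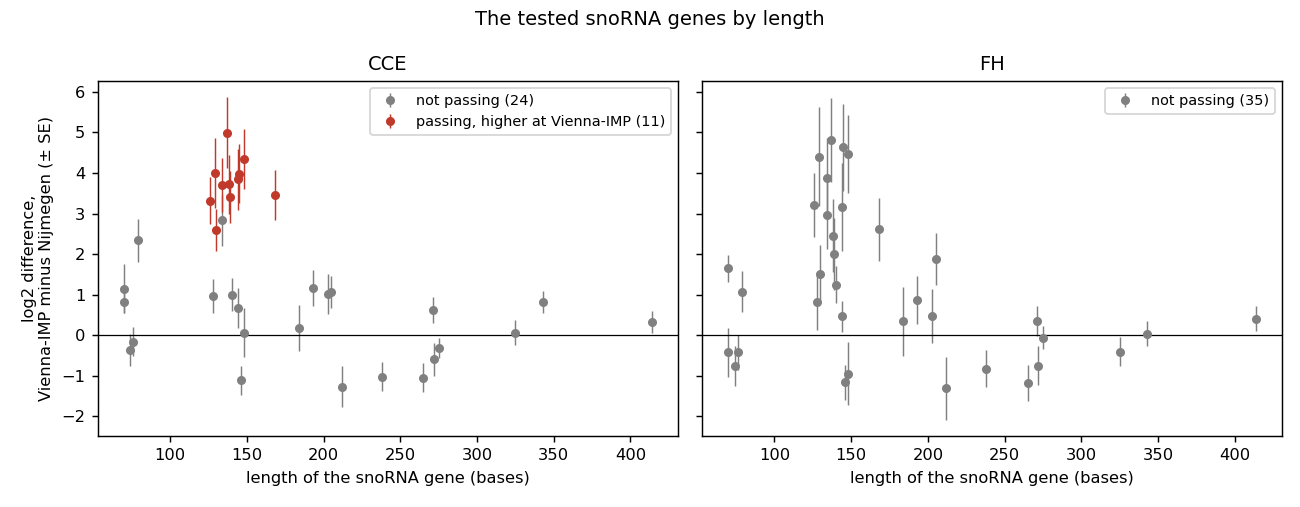
Log2 difference of Vienna-IMP minus Nijmegen (± SE) against gene length in bases for the 35 snoRNA genes tested, in CCE and in FH, with genes that passed in red. In CCE the 11 red points lie between 126 and 168 bases, and longer snoRNAs lie between -1.27 and 1.16.

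Longer snoRNAs moved both ways and none passed. Snora73b of 205 bases gave 1.07 in CCE and 1.88 in FH, and SCARNA16 of 193 bases gave 1.16 and 0.87. U3, the snoRNA that guides cleavage of the ribosomal precursor, gave -1.27 in CCE and -1.31 in FH, and Scarna6 of 265 bases gave -1.04 and -1.17. Scarna2, which guides modification in Cajal bodies, gave 0.34 and 0.41 as a whole, but its bin of 77% GC at chr3:108357370-108357469 passed in both tissues. It held 198, 25, 55, 26, 87, 75 and 72 tags at Vienna-IMP and 281, 433, 201, 307, 375, 331 and 473 at Nijmegen, so that every Nijmegen library lay above every Vienna-IMP library. Small nuclear RNAs summed to 18 ± 3.30 RPM at Vienna-IMP and 12.1 ± 5.34 at Nijmegen, with adjusted p = 0.146 in the exact permutation test.

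Among the other gene lists, replication-dependent histones had most genes that passed. Of the 52 tested, 3 were higher at Nijmegen in CCE (0.207% of all genes), none in FH (0.0239%) and 11 in the mean (0.629%), and none was higher at Vienna-IMP, with median differences of -0.70 in CCE and -0.47 in FH. Hist1h3h, which encodes histone H3, had an RPKM of 100.95, 20.7, 36, 14.1, 74.1, 10.7 and 7.49 at Vienna-IMP and 469, 170, 203, 61, 345, 48.7 and 50.9 at Nijmegen. Its first 100 bases, of 62% GC, held 1 to 39 tags at Vienna-IMP and 35 to 228 at Nijmegen. Histone genes are near-identical copies, and only tags with a single place in the genome were kept. Their summed level was 3808 ± 1897 and 5117 ± 2448 RPM and did not pass (p = 0.162, exact permutation test). The library with the highest sum at Vienna-IMP, sheared CCE preparation 1, held 7893.

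Ribosomal proteins (58 tested), nuclear oxidative phosphorylation genes (72), collagens (35), proteasome subunits (35) and zinc finger genes named Zfp (222) held at most 2 genes that passed in the mean, with medians between 0.01 and 0.16 in either tissue. Of 24 Hox genes 1 passed, Hoxa5, which was higher at Nijmegen in CCE with a difference of -1.11 ± 0.23 (adjusted p = 0.0309), where 0.207% of all genes were. Col1a1 of bone and skin matrix gave 0.31 and 0.33, the neuronal tubulin gene Tubb3 gave 0.49 and 0.76, and Rpl4 of the large ribosomal subunit gave 0.02 and 0.03, and none of them passed. Of 280 lincRNAs tested 4 passed in the mean, a share near that of all genes (0.955%). Of 10 long ncRNAs tested from a fixed list 1 passed, against the same 0.955%, and Malat1 (0.04 and 0.00) and H19 (0.06 and 0.10) did not.

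Genes that the study follows, and Dleu2, gave similar levels at both locations within their spread. Igf2r, the imprinted receptor gene silenced by the macro ncRNA Airn, had a mean RPKM of 99.5 ± 11.6 (SD, n = 4) at Vienna-IMP and 102 ± 9.47 at Nijmegen in CCE, and 25.7 ± 7.25 (n = 3) and 26.6 ± 3.46 in FH. Airn had 3.82 ± 1.56 and 3.07 ± 0.96 in CCE, and 2.82 ± 1.21 and 2.31 ± 1.04 in FH. Cryaa, a lens crystallin, had 75.5 ± 6.63 and 73.1 ± 15.7 in FH, and the pluripotency factor Pou5f1 had 18.9 ± 1.77 and 17.6 ± 4.69 in CCE. The ncRNAs Dlx6os1, with 7.48 ± 3.94 and 6.52 ± 4.13 in FH, A330076H08Rik, with 1.88 ± 0.15 and 1.96 ± 0.88, and Dleu2, a host gene of miRNAs, with 3.40 ± 0.94 and 3.88 ± 1.80, differed by less than their SDs. The annotation used here names no Kcnq1ot1, Ipw, D7Ertd715e or Ftx, which were not analysed.

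The comparison of the tissues was similar at both locations. FH and CCE differed in 7472 genes at Nijmegen (59.5%) and in 7524 at Vienna-IMP (59.9%), of which 2889 and 3030 were higher in FH, and with median-ratio scaling 3826 of 6713 and 3913 of 6910 were. Calls of the same direction numbered 6673, which is 89.3% of those at Nijmegen and 88.7% of those at Vienna-IMP, and no gene passed in opposite directions. No gene passed a test of whether the tissue difference itself differed between the locations (140 at an unadjusted p under 0.05). This asks the same question as the test of location differences between the tissues above, in another fit, and is not a second result. The median size of the tissue difference was 0.87 at Nijmegen and 0.86 at Vienna-IMP on the log2 scale, and that of the location difference 0.17 in CCE and 0.21 in FH.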

How the data were processed

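Deposited files list sequence tags, 1 line each with start and end. Per the labels and methods, the authors mapped 36-base reads with Bowtie to mm9 with up to 2 mismatches, kept tags with 1 place in the genome and removed ribosomal and mitochondrial tags, so that tags over splice junctions are missing. The score column deposited by the authors was not used. Vienna-IMP tags cover 36 bases and Nijmegen tags 35, since the first read base is missing, and starts were shifted by 1. Tags were counted by midpoint in merged exons of 37273 GENCODE M1 genes, and RPKM was computed over all unique tags. Genes with a mean of at least 10 tags per library in a tissue were tested with limma 3.58.1 (voom, R 4.3.3), with tissue by fragmentation levels and a location effect in each tissue, and Benjamini-Hochberg adjustment at 0.05. Shares were compared by exact permutation with numpy 2.4.6 in Python 3.11.15. Values are of whole-number tags, so intervals and tests do not cover copies of 1 molecule from PCR.

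In simulated counts with 200 of 12568 genes changed 4-fold, 137 were recovered in both tissues and no unchanged gene was called there. In CCE 8 and in FH 7 unchanged genes were called. With 200 of 25715 bins changed 4-fold, 25 were recovered in both tissues and no unchanged bin was called there, while 7 were called in CCE and 5 in FH. Counts were drawn independently with a fixed dispersion (spread beyond counting noise) of 0.1, so shifts shared by many genes of a library were not simulated. The log2 ratio of preparation 1 to 2 correlated between locations with r = 0.64 in sheared CCE, -0.69 in hydrolysed CCE (both over 6402 genes) and -0.59 in hydrolysed FH (5429 genes). Labels were kept as given, and blocks were fitted with the numbers as given and with those of hydrolysed libraries crossed.

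Named genes were those passing in both tissues with 1 sign in all 4 combinations, genes the study follows and members of fixed lists with most tags, and others were chosen after their values were seen. No gene was named under a further rule for differences between tissues, since none passed. Members, lists and length limits were chosen with earlier results of these data known. Local GC, bins, gene groups and the mean contrast were added after the data were seen, and the tests of a dependence on fragmentation were not planned either. A list of structural small RNAs matched no annotated gene, and no tested gene was of type snRNA. Alternatives were log2 RPKM plus 1 or 0.1, median-ratio scaling, no filter or 50 tags, repeated positions counted once, replicate blocks, hydrolysed libraries only and each library left out. The other 10 samples of the series were not analysed here.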

Additional observations from a re-analysis of the deposited data

Results flagged for a closer look

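4 library values stood far from the other libraries of their location, among 94 groups looked at, of which chance would flag about 1 in 20. These groups mix tissues and fragmentations, and sheared FH is 1 library at each location. A value can thus be flagged for its tissue and fragmentation. The sheared FH library of Nijmegen took 16.3% of exon tags in genes of at least 60% GC, against 6.11% to 10.3% in the other Nijmegen libraries. Sheared FH of Vienna-IMP had a similar share, 16.5%. The sheared FH library of Vienna-IMP took 37.6% of exon tags at a local GC of 50 to 59%, against 43.0% to 45.7% in the others. In the same library 0.124% of 3′ UTR tags had a local GC of at least 75%, against 0.0130% to 0.0593%. For these 2 measures sheared FH of Nijmegen had 39.9% and 0.263%. In sheared CCE preparation 1 of Vienna-IMP, replication-dependent histones summed to 7893 RPM, against 2497 to 3949 in the others.

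The location effect differed between hydrolysed and sheared libraries for the GC of exon tags, by 1.52 percentage points (p = 0.0278, exact permutation test), and for the share of exon tags with a local GC under 40%, by -2.33 percentage points (p = 0.00463, adjusted p = 0.0417, exact permutation test). In hydrolysed FH, tags under 40% made up 4.77% at Vienna-IMP and 7.16% at Nijmegen, and in sheared FH 2.81% and 1.58%. Sheared FH was sequenced once at each location. These contrasts between hydrolysed and sheared libraries were not planned.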

How the results depend on the processing

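Numbers of genes were small and moved with the setting, and the cause was not tested. Genes passing in both tissues numbered 6 on log2 RPKM plus 1, 0 with no filter on low genes, 6 in hydrolysed libraries only and 5 without the fullest bin of each gene. In CCE, 23 passed on log2 RPKM plus 0.1, 67 with no filter, 7 with a filter of 50 tags, which left 6575 genes, and 24 with repeated positions counted once. In FH, 10 passed on log2 RPKM plus 1, 0 with no filter, 2 with a filter of 50 tags, 7 in hydrolysed libraries only and 8 without the fullest bin. The mean of both tissues gave 40 with a filter of 50 tags, 79 with repeated positions counted once and 54 in hydrolysed libraries only. With repeated positions counted once, 4 genes were higher at Vienna-IMP in CCE and 13 in the mean. FH against CCE gave 4432 of 6575 genes at Nijmegen and 4437 at Vienna-IMP with the filter of 50 tags, against 7472 and 7524 of 12568. Bins passing in both tissues numbered 118 on log2 RPKM plus 1, 30 of the 1823 bins left by a filter of 50 tags and 107 of the 20350 left with repeated positions counted once, against 198 of 25715, and 111, 25 and 100 of them were among the 198. Of 9 settings, Set passed in both tissues in 8, Rnf217 in 7 and Gm17591 in 4, and of 14 fits with a library left out in 8, 9 and 5.

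With the preparation number as a replicate block, 12 genes passed in both tissues and 13 in FH, and no gene group passed. Only sheared CCE correlated positively between its numbers. With the numbers of hydrolysed preparations crossed, the block gave 27 genes in both tissues, 132 in CCE, 33 in FH, 310 in the mean and 263 for the dependence on fragmentation, and no gene group passed. Under both blocks the 5′ UTR share and the share of tags of at least 80% local GC passed.

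With each library left out in turn, counts ran from 0 to 10 genes in both tissues, 15 to 44 in CCE, 0 to 11 in FH, 50 to 125 in the mean and 112 to 196 bins. The lowest counts in both tissues, FH and the mean came without the sheared FH library of Vienna-IMP, that in CCE without the hydrolysed CCE preparation 1 library of Nijmegen, and that of bins without the hydrolysed FH preparation 2 library of Vienna-IMP. Passing gene groups ran from 0 to 2, passing local GC classes from 4 to 7, and the 5′ UTR share passed without each library. The difference in the GC of exon tags, which did not pass, turned to -0.29 in CCE only, -0.81 in sheared libraries only, -0.0436 with repeated positions counted once and -0.20 over 200 bases from the tag start. It ran from -0.24 to 0.24 with a library left out, with -0.0359, -0.0278, -0.12, -0.0137 and -0.24 below 0. The difference in repeated positions was -0.14 in hydrolysed libraries only. Without strata in the permutation, 0 of the UTR and coding shares, 3 of 5 regions with rich tags and 0 gene groups passed, and 7 local GC classes passed with repeated positions counted once. Subsets by tissue or fragmentation cannot reach 0.05, with smallest p from 0.0556 to 0.167, and gave no calls in the exact permutation test.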

Other observations

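Among the 79 genes higher at Nijmegen in the mean of both tissues were Cebpb, Foxc1, Id4, Hoxa5 and Sox17, which encode regulators of transcription. They were chosen after all values had been seen, and such genes were not counted or tested as a group. Cebpb, a factor of fat and liver cells, differed by -1.59 (adjusted p = 0.0094), and Foxc1, needed for eye and skeletal development, by -1.20 (adjusted p = 0.000541). Id4, an inhibitor of helix-loop-helix factors in neural progenitors, differed by -1.22 (adjusted p = 0.00218), and Sox17, a factor of endoderm, by -0.78 (adjusted p = 0.0488). Bins of at least 75% GC made up 46.7% of the exon bins of Cebpb, 20% of Foxc1, 11.8% of Id4, 10.5% of Hoxa5 and 6.25% of Sox17, against a median of 10.2% over the 79 genes and 0% over all genes tested.

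Small RNAs other than snoRNAs were among the 41 genes higher at Vienna-IMP. A gene of 7SK, the RNA that holds the elongation factor P-TEFb inactive, lies at chr9:120700583-120700903 and has 321 bases. It held 34, 32, 25, 36, 44, 39 and 74 tags at Vienna-IMP and 4, 10, 2, 3, 5, 8 and 21 at Nijmegen, in the order used for Set. Every Vienna-IMP library held more tags than any Nijmegen library. It differed by 2.54 in CCE (adjusted p = 0.0116) and by 2.06 in FH (adjusted p = 0.127). 7SK has many near-identical copies in the genome, and only tags with a single place were kept. Tags that match several copies are thus missing from these counts, and the copy that gave the RNA was not settled.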
